A study of Mus musculus with 15 samples.

Results

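The cell cycle and DNA replication genes are 43 named genes of the tumor count table, chosen by name as a set of known cell cycle genes, with earlier results of these data known. They divide into 20 G1/S genes, which prepare or carry out DNA replication, and 23 G2/M genes, which act in chromosome segregation and cell division. All 43 were found among the 32543 gene entries of the table. All 43 also passed the filter on low values that 15494 entries passed, and each had at least 251 counts in every tumor, so no member passed through a single group of tumors.

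RNA was sequenced from 15 subcutaneous tumors of WEHI-164, an established mouse fibrosarcoma line, grown in female BALB/c mice labelled as WT. On day 0, 3 untreated tumors were taken, and on days 1, 3, 5 and 7 after the start of treatment 3 tumors each were taken that had been given poly(I:C), a synthetic double-stranded RNA sensed by Toll-like receptor 3. The labels give the injection as 1 µg in 25 µL into the tumor each day with 6 doses planned. The sequencing methods of the paper also give 1 µg daily, but a larger daily amount stands in a supplementary legend, so the dose is uncertain. The comparisons ask how the tumor changed over a course of repeated injections. Every treated tumor differed from the day 0 tumors in time as well as in treatment, no vehicle group is labelled, although a legend of the paper speaks of tumors given vehicle, and effects of injection, of poly(I:C) and of tumor growth cannot be told apart. The labels give no age for the mice. Surrounding tissue was cut away and the whole tumor was used, so a level is a mixture over tumor cells and the cells of an immunocompetent host.

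A cell that divides builds its DNA replication machinery in late G1 and S phase, when E2F factors are released from the retinoblastoma protein family and switch on cyclin E, the MCM helicase and the enzymes of deoxynucleotide supply. Mitotic genes are switched on later, through CCAAT boxes bound by NF-Y and through a short element known as the cell cycle genes homology region (CHR). Because transcripts of both sets are scarce in resting cells, their summed level in a tissue is commonly read as a measure of how many of its cells are cycling.

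Promoters of the members are shown first, searched for letters through which the G1/S and G2/M programs are thought to be read. RefSeq promoter windows on GRCm38.p6 were matched for 35 of the 43 members, 16 G1/S and 19 G2/M, and the 250 bases before each start were searched on both strands. Where a gene had several listed starts, as 2 members did, only the first was used. No window was matched for Ccnd1, Ccne2, Mcm4, Gins2, Ccna2, Aurkb, Kif20a and Tpx2. Letters searched were TTTGAA for the CHR, CCAAT for the CCAAT box, and TTTCGCGC, TTTGGCGC, TTTCCCGC and TTTGCCGC for E2F. Capitals in the sequences mark every match on either strand. Mki67 and Cdk1 are shown as G2/M genes with CHR and CCAAT letters, Cdk1 with E2F letters as well, Mcm5 as a G1/S gene with E2F and CCAAT letters, and Ccne1 as 1 of 8 matched members with none of them. The other 7 were Cdk4, Cdt1, E2f1, Tk1, Tyms, Birc5 and Nusap1. The E2f1 window appears to read as coding sequence of E2f1 itself, so its lack of letters does not describe the E2f1 promoter. It was kept in the counts that follow.
Mki67 (chr7:135716380-135716629, minus strand): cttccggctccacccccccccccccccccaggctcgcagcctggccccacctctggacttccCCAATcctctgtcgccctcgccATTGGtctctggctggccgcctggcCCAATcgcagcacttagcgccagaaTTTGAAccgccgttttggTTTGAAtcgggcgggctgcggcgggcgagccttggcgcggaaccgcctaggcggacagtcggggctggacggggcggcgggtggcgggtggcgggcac
Cdk1 (chr10:69352913-69353162, minus strand): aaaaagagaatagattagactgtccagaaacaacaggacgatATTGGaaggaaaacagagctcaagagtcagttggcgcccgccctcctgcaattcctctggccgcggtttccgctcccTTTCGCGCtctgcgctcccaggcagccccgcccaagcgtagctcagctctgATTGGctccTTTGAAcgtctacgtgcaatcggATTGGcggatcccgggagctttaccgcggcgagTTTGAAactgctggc
Mcm5 (chr8:75109259-75109508, plus strand): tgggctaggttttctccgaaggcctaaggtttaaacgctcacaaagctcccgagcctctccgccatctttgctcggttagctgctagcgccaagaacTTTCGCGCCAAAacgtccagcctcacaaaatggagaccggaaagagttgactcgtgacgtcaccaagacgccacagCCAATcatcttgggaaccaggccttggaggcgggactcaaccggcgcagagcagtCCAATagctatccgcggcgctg
Ccne1 (chr7:38107491-38107740, minus strand): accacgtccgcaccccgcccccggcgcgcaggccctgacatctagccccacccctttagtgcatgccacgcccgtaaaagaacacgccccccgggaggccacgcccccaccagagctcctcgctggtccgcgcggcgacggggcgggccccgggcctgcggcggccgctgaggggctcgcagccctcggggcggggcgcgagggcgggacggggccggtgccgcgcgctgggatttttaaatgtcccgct

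CCAAT letters were present in 17 of 19 G2/M promoters (89.5%), in 9 of 16 G1/S promoters (56.2%) and in 34.5% of all 27025 promoter windows. CHR letters were present in 7 of 19 G2/M promoters (36.8%), in 1 of 16 G1/S promoters (6.25%), which was Mcm2, and in 16.3% of all promoters. The order was the other way round for E2F letters, which were present in 5 of 16 G1/S promoters (31.2%), in 1 of 19 G2/M promoters (5.26%), which was Cdk1, and in 1.91% of all promoters. The G1/S promoters with E2F letters were those of Cdc6, Cdk2, Mcm5, Mcm6 and Mcm7. In Mcm5 and Mcm6 the E2F letters of the opposite strands overlapped, as in the run of 12 capitals of the Mcm5 sequence. CCAAT letters overlapped each other in 1 G2/M promoter, and no member had overlapping matches of different motifs. A match of letters is a description of the sequence, and binding was not measured.

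Levels are given as CPM, the counts of a gene scaled to a common total after TMM scaling between tumors. Tumors had between 23713090 and 31913106 counts in all, and a count of 0 allows a level of up to 3 counts, or 0.0940 to 0.127 CPM. Day 3 replicate 1 stood apart from the other 14 tumors. It lay at 144.5 on the first principal component of log2 CPM, against -77.0 to 45.1 for the others, and correlated with them at 0.884 on average, where no other tumor was below 0.956. In this tumor the summed level of 10 skeletal muscle genes was 3325 CPM, against 3.64 to 185 CPM in the other tumors, and that of 7 tested of 8 adipocyte genes was 589.7 CPM, against 9.74 to 125 CPM. All 10 muscle genes and all 8 adipocyte genes were above their range in the other tumors, among them Acta1 at 894 CPM against 0.0732 to 54.6 CPM. Its T cell list (12 of 12 genes above the other tumors) summed to 425 CPM against 18.7 to 238 CPM, its macrophage list (9 of 11 above) to 7372 CPM against 1253 to 3625 CPM, and its hypoxia list, 10 genes, to 1638 CPM against 2687 to 5500.0 CPM. The 3 tested keratinocyte markers summed to 8.42 CPM in it, against 9.63 to 37.9 CPM in the others. Krt1 and Ivl were at 0 in it, but were near absent throughout, with at most 0.0389 and 0.156 CPM in any other tumor. Fibroblast and sarcoma genes, which fit the labelled tissue, were all 12 detected in every tumor and summed to 34150 CPM in this tumor and to between 9204 and 16180 CPM in the others. Within this list Vim and Lox were lower in this tumor, Vim at 2763 CPM against 4085 to 5165 CPM. Fold changes on day 3 are therefore given with and without day 3 replicate 1. Without it DESeq2 called 0.28% of all genes as higher and 0.273% as lower on day 3 against day 0, where with all tumors it called 9.43% and 4.09%.

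Day 3 replicate 1 had the lowest level of all 15 tumors for 43 of 43 members, while it was the lowest for 36.6% of the 15494 genes tested. Its level was between 23.6% and 72.1% of the median of the other 14 tumors, with a median of 44.6% over the G1/S members and 38.8% over the G2/M members, against 96.8% over all genes tested. The members least reduced were Cdk2 at 72.1%, Gins2 at 70.4% and Ccne1 at 70.3%, and the member most reduced was Ccnd1 at 23.6%. Fewer cycling cells in the sample and less RNA of these genes per cell cannot be told apart in whole tumors, and the part of the muscle, fat, stromal and immune RNA of this tumor in its low levels was not tested.

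**Figure D1:**
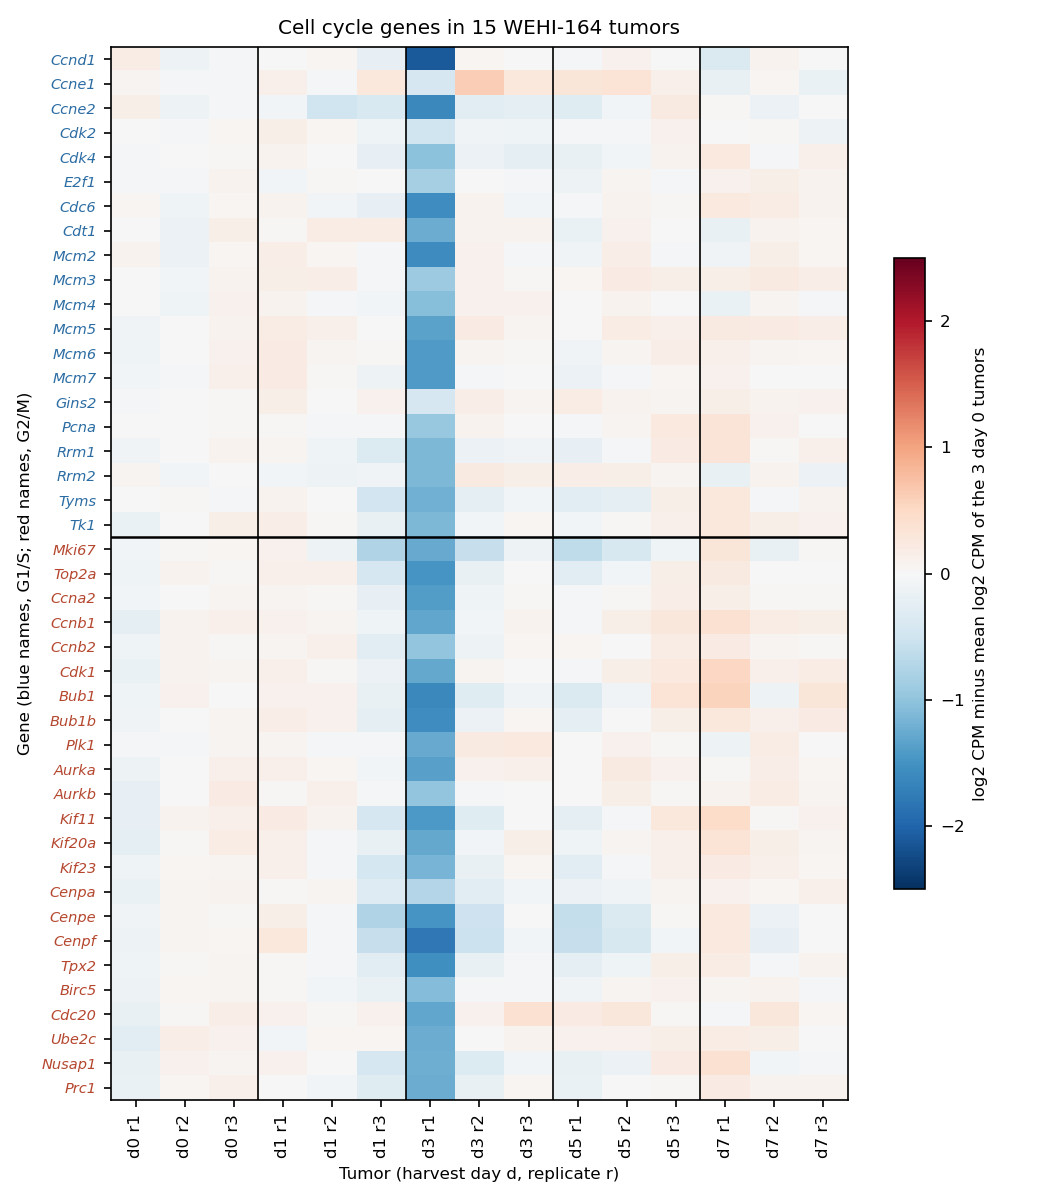
Level of the 43 members (rows, G1/S names in blue above the line and G2/M names in red below it) in each of the 15 tumors (columns, by harvest day and replicate), as log2 CPM minus the mean of the 3 day 0 tumors. The column of day 3 replicate 1 is blue in every row, and no other column departs from day 0 by as much.

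The G1/S class held almost the same level on every day once this tumor was set aside. The mean log2 CPM of the 20 genes was 6.97 ± 0.05 before treatment and 6.97 ± 0.09 on day 1. It was 6.61 ± 0.68 on day 3, then 7.01 ± 0.08 on day 5, and 7.04 ± 0.02 at the end on day 7 (SD, n = 3). Among the day 3 tumors it was 5.83, 7.02 and 6.97 in replicates 1, 2 and 3, so replicates 2 and 3 lay within the 6.92 to 7.03 spanned by day 0 and replicate 1 lay far below. The mean log2 CPM of the 23 G2/M genes was 7.22 ± 0.12 before treatment and 7.17 ± 0.19 on day 1. It was 6.75 ± 0.72 on day 3, then 7.20 ± 0.15 on day 5, and 7.34 ± 0.10 at the end on day 7 (SD, n = 3). The G2/M level was 5.92, 7.06 and 7.26 in day 3 replicates 1, 2 and 3, against 7.08 to 7.31 on day 0. The lowest G2/M level in the other 14 tumors was 6.95, in day 1 replicate 3, and the highest was 7.45, in day 7 replicate 1. The difference between the class levels, G2/M minus G1/S, was 0.25 ± 0.13 before treatment, 0.14 ± 0.13 on day 3 and 0.30 ± 0.09 on day 7 (log2, SD, n = 3), with overlapping tumors, and 0.20 ± 0.11 and 0.19 ± 0.08 on the days between.

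**Figure D2:**
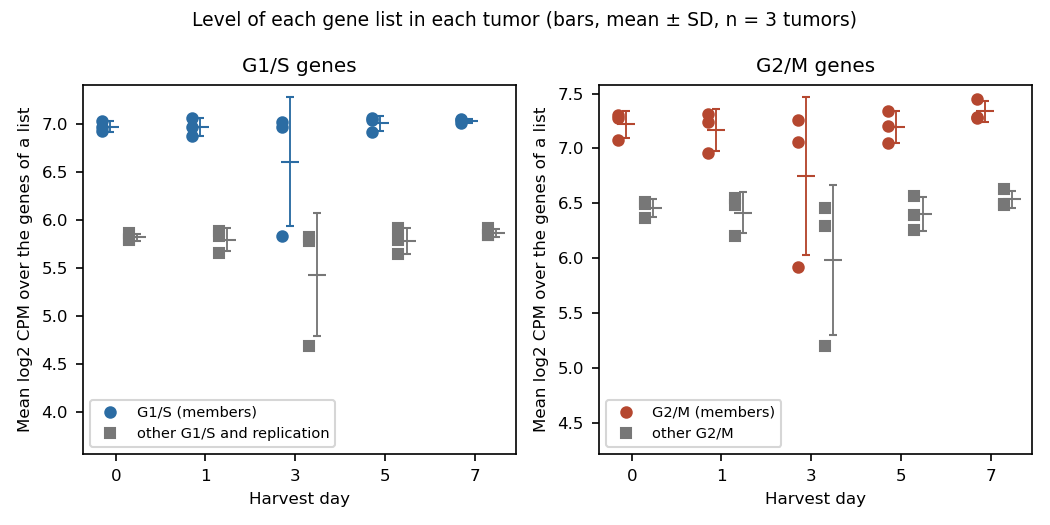
Mean log2 CPM (vertical axis) of the G1/S members and 39 other G1/S and replication genes (left) and of the G2/M members and 47 other G2/M genes (right) against harvest day, with 1 point per tumor and bars for the mean ± SD of 3 tumors. The day 3 tumor at 5.83 (G1/S) and 5.92 (G2/M) stands alone below the others, and the second list of genes repeats the pattern.

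The G1 regulators are 6 members that decide entry into S phase. Cyclin D1 (Ccnd1) and Cdk4 phosphorylate the retinoblastoma protein, cyclins E1 and E2 (Ccne1, Ccne2) and Cdk2 carry the cell across the G1/S boundary, and E2f1 is the transcription factor they release. Ccnd1 stood at 930.3, 745 and 792 CPM on day 0, 816, 849 and 713 on day 1, 192, 846 and 827 on day 3, 788, 881 and 812 on day 5 and 641, 867 and 808 on day 7. Cdk4 stood at 347, 355 and 362 CPM on day 0, 376, 349.9 and 308 on day 1, 174, 320.1 and 301 on day 3, 312, 338 and 379 on day 5 and 419.6, 343 and 387 on day 7. On day 3 all 3 Cdk4 values were below all 3 of day 0, and on day 7 they spread from below to above them. Levels of Ccne1 were 20.1, 18.6 and 18.8 CPM on day 0, 20.9, 18.8 and 23.1 on day 1, 14.4, 29.2 and 23.0 on day 3, 23.5, 24.3 and 20.8 on day 5 and 16.8, 19.7 and 17.1 on day 7. Levels of Ccne2 were 34.6, 28.6 and 30.3 CPM on day 0, 29.6, 22.1 and 24.0 on day 1, 10.1, 26.0 and 26.1 on day 3, 25.3, 29.5 and 36.4 on day 5 and 31.5, 28.1 and 30.9 on day 7. The cyclin E genes differed in day 3 replicates 2 and 3, which were above all day 0 tumors for Ccne1 and below all of them for Ccne2. Cdk2 measured 56.2, 55.4 and 58.7 CPM on day 0, 62.5, 58.6 and 52.9 on day 1, 40.4, 53.2 and 52.4 on day 3, 54.9, 55.9 and 61.0 on day 5 and 56.4, 57.5 and 51.8 on day 7. E2f1 measured 48.8, 49.1 and 53.6 CPM on day 0, 48.1, 51.8 and 50.3 on day 1, 28.2, 51.1 and 49.3 on day 3, 46.0, 52.7 and 49.7 on day 5 and 54.2, 55.9 and 53.5 on day 7. Cdk2 was lower in all 3 day 3 tumors than in any day 0 tumor, by a small margin in replicates 2 and 3, while for E2f1 only replicate 1 was outside the day 0 range.

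Replication licensing and fork genes are the largest group of the G1/S class, with 10 members. Cdc6 and Cdt1 load the MCM helicase (Mcm2 to Mcm7) on origins, Gins2 is part of the active helicase, and Pcna is the sliding clamp of the polymerases. Mcm2 stood at 194, 164 and 189 CPM on day 0, 204, 188 and 176 on day 1, 61.2, 195 and 175 on day 3, 171, 204 and 174 on day 5 and 169.9, 200 and 187 on day 7. Mcm5 stood at 199, 209.7 and 225 CPM on day 0, 242, 231 and 212 on day 1, 84.0, 243 and 223 on day 3, 211, 239.5 and 230.0 on day 5 and 248, 243 and 237 on day 7. Pcna stood at 318, 318 and 328 CPM on day 0, 326, 312 and 316 on day 1, 167, 343 and 323 on day 3, 316, 335 and 379.6 on day 5 and 399, 347 and 324 on day 7. Outside day 3 replicate 1 these 3 genes stayed within narrow limits, and all 3 Mcm5 values of day 7 were above those of day 0. The other 7 genes varied by as little, with coefficients of variation over the 14 tumors from 4.56% for Gins2 to 8.26% for Cdt1, against a median of 14.3% over all genes tested.

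Nucleotide supply is represented by 4 members, the large and small subunits of ribonucleotide reductase (Rrm1, Rrm2), thymidylate synthase (Tyms) and thymidine kinase 1 (Tk1). Rrm1 levels were 236, 252 and 266 CPM on day 0, 264, 233 and 197 on day 1, 115, 226 and 237 on day 3, 218, 246 and 291 on day 5 and 313, 257 and 272 on day 7. Rrm2 levels were 171, 156 and 165 CPM on day 0, 156, 150.3 and 153 on day 1, 75.6, 193 and 181 on day 3, 185, 181 and 172 on day 5 and 144, 173 and 149 on day 7. The subunits did not follow each other, since day 3 replicates 2 and 3 had the highest and the fourth-highest Rrm2 of the 15 tumors while their Rrm1 was within or below the day 0 range. Tyms levels were 76.2, 77.5 and 75.1 CPM on day 0, 81.3, 76.8 and 54.4 on day 1, 33.1, 64.2 and 72.3 on day 3, 63.2, 65.0 and 84.0 on day 5 and 91.5, 74.5 and 81.5 on day 7. All 3 day 3 values of Tyms lay below all 3 of day 0, as did day 1 replicate 3, 2 tumors of day 5 and, by a small margin, day 7 replicate 2. Tk1 ranged from 136 to 185 CPM outside day 3 replicate 1, where it was 70.3 CPM.

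Mitotic kinases and cyclins are 7 G2/M members. Cyclins A2, B1 and B2 (Ccna2, Ccnb1, Ccnb2) activate Cdk1, the kinase that drives mitotic entry, cyclin A2 also acting in S phase, and Plk1, Aurka and Aurkb guide centrosomes, spindle and cytokinesis. Cdk1 stood at 136, 161 and 160.5 CPM on day 0, 167, 156 and 137 on day 1, 62.5, 160.2 and 153 on day 3, 146, 168 and 181 on day 5 and 218, 165 and 173 on day 7. Ccnb1 stood at 112, 139 and 142 CPM on day 0, 141, 136 and 122 on day 1, 52.7, 125 and 139 on day 3, 126, 145 and 159 on day 5 and 169.7, 148 and 144 on day 7. Both genes were higher in all 3 tumors of day 7 than in any of day 0, with the top value in day 7 replicate 1. Plk1 levels were 99.9, 101 and 108 CPM on day 0, 108, 100.2 and 101 on day 1, 43.1, 120.1 and 122 on day 3, 104, 111 and 104 on day 5 and 94.2, 116 and 104 on day 7. For Plk1, day 3 replicates 2 and 3 held the highest values of the 15 tumors and day 7 replicate 1 the second-lowest, unlike the pattern of Cdk1 and Ccnb1.

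Kinetochore, checkpoint and APC/C genes are 8 members. Cenpa is the histone of centromeres, Cenpe and Cenpf serve the kinetochore, Bub1 and Bub1b the spindle checkpoint, Birc5 the chromosomal passenger complex, and Cdc20 and Ube2c the anaphase-promoting complex. Bub1 stood at 109, 126 and 119.6 CPM on day 0, 127, 127 and 104 on day 1, 38.7, 96.2 and 111 on day 3, 92.3, 111 and 150.3 on day 5 and 175, 108 and 147 on day 7. Cenpa stood at 90.6, 107 and 109 CPM on day 0, 104, 107 and 81.3 on day 1, 61.4, 84.9 and 97.5 on day 3, 91.6, 96.0 and 108 on day 5 and 109, 105 and 112 on day 7. For both genes day 3 replicate 2 was below all day 0 tumors and day 3 replicate 3 within their range, and Bub1 spread widely on days 5 and 7. Cdc20 levels were 109, 127 and 139.9 CPM on day 0, 134, 127 and 134 on day 1, 50.9, 134 and 162 on day 3, 144, 151 and 126 on day 5 and 122, 152 and 129 on day 7. Cdc20 was higher in day 3 replicate 3 than in any other tumor and lowest, day 3 replicate 1 aside, in day 0 replicate 1.

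Spindle and cytokinesis genes are 6 members (the motors Kif11, Kif20a and Kif23, and Tpx2, Prc1 and Nusap1, which act on microtubules), and chromosome structure is represented by Mki67, which coats mitotic chromosomes and encodes the Ki-67 antigen, and by topoisomerase II alpha (Top2a). Nusap1 levels were 112, 138 and 135 CPM on day 0, 137, 128 and 95.8 on day 1, 54.7, 100.5 and 122 on day 3, 112, 116 and 147 on day 5 and 167, 122 and 123 on day 7. Mki67 levels were 511, 551 and 555 CPM on day 0, 579, 494 and 321 on day 1, 226, 359.6 and 496 on day 3, 346, 406 and 503 on day 5 and 668, 476 and 551 on day 7. Top2a levels were 656, 747 and 720.4 CPM on day 0, 776, 776 and 526 on day 1, 255, 620.3 and 706 on day 3, 582, 672 and 787 on day 5 and 828, 710.3 and 715 on day 7. All 3 day 3 values of Mki67 lay below all 3 of day 0, and so did all 3 of day 5, while day 1 replicate 3 was lower than any other tumor but day 3 replicate 1.

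**Figure D3:**
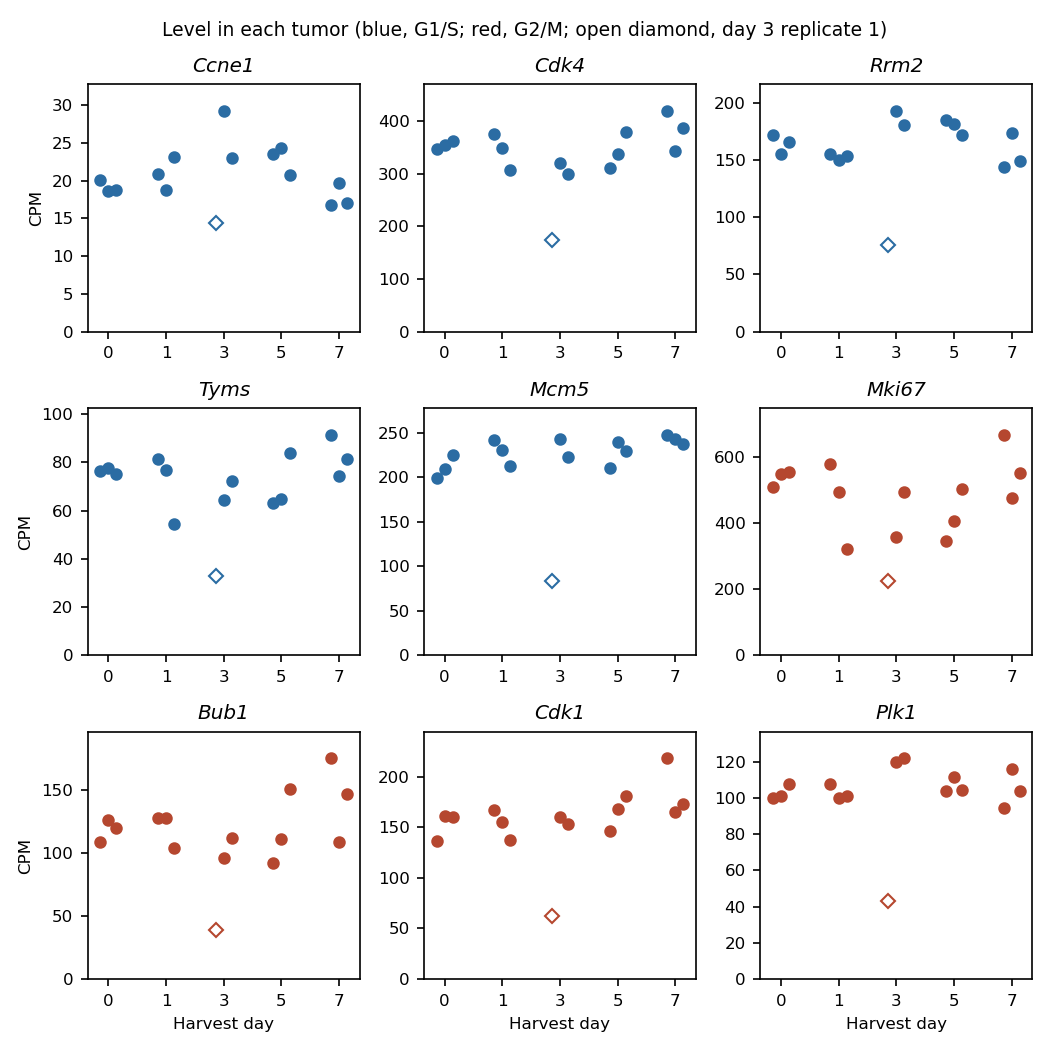
CPM (vertical axes, from 0) of 9 members in each tumor against harvest day, G1/S members in blue and G2/M members in red, with day 3 replicate 1 as an open diamond. The diamond is the lowest point of every panel, Ccne1, Rrm2 and Plk1 are high in the other 2 tumors of day 3, and Mki67 is low in 1 tumor of day 1 and below day 0 in all tumors of days 3 and 5.

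The comparison of day 3 with day 0 asked how these genes stood in the middle of the course. The quasi-likelihood test of edgeR, adjusted by Benjamini-Hochberg over all genes, called 0 members and 0 of 15494 genes (0%). DESeq2 called 0 members, where it called 4.09% of all genes as lower and 9.43% as higher. By DESeq2 5 members had an unadjusted p under 0.05, beside 34.2% of all genes. By sign alone, 19 of 20 G1/S members and 23 of 23 G2/M members were lower on day 3, against 52% of all genes, with median log2 fold changes of -0.27 for G1/S and -0.35 for G2/M and of -0.02 for all genes. In the fit without day 3 replicate 1 the medians were 0.03 and -0.05, with 8 of 20 and 16 of 23 members lower, against 50.8% of all genes. Only Cdk4 had an unadjusted edgeR p under 0.05 with all tumors, where 11.7% of genes had one with a lower level. The day 3 tumors lay wholly below the day 0 tumors for 5 members, Ccne2, Cdk2, Cdk4, Tyms and Mki67, or 4 of 20 G1/S and 1 of 23 G2/M, against 19% of all genes.

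The G1/S members with the largest differences on day 3 were Ccne2, Tyms and Cdk4. Ccne2 was at -0.59 ± 0.28 (log2 fold change ± SE, adjusted p = 0.174 by edgeR), and at -0.26 without day 3 replicate 1. For Tyms these values were -0.43 ± 0.24 (adjusted p = 0.221 by edgeR) and -0.16. Cdk4 was at -0.42 ± 0.18 (adjusted p = 0.155 by edgeR) and at -0.19 without it. Gins2 was nearest to 0, at -0.03. None of these passed the test. In the G2/M class the largest were Cenpf at -0.64 ± 0.33, Mki67 at -0.58 ± 0.27 and Cenpe at -0.55 ± 0.31, with adjusted p-values of 0.201, 0.169 and 0.234 by edgeR. When that tumor was left out they were -0.29, -0.33 and -0.24. Plk1 was nearest to 0 with all tumors, at -0.11.

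Ccne1 was the single member with a higher level on day 3, and 19 members stood higher without day 3 replicate 1. Ccne1 was at 0.21 ± 0.20 with all tumors (adjusted p = 0.433 by edgeR) and at 0.45 ± 0.13 without replicate 1 (adjusted p = 0.37 by edgeR). Limma voom with quality weights, which gave day 3 replicate 1 a weight of 0.0719, called Ccne1 as higher on day 3 at 0.41 (adjusted p = 0.0428, and 0.0428 to 0.895 over the 23 settings tried), where it called 4.66% of all genes as higher. It called no member as lower, beside 2.99% of all genes. Once day 3 replicate 1 was left out, Plk1 at 0.24 and Rrm2 at 0.19 were the other members higher at an unadjusted p under 0.05, 3 in 43 beside 6.52% of all genes, and 0 were lower beside 6.56%. The adjusted p-values of Plk1 and Rrm2 were 0.37 and 0.381 by edgeR.

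By role, the replication licensing and fork genes were lower as a group with all tumors and mostly higher without day 3 replicate 1. Their median log2 fold change on day 3 was -0.23 with 10 of 10 lower, and 0.06 with 9 of 10 higher without day 3 replicate 1. Nucleotide supply had medians of -0.34 and -0.06, and the G1 regulators -0.32 and -0.05. In the G2/M class the medians were -0.29 and 0.01 for kinases and cyclins, -0.37 and -0.10 for kinetochore, checkpoint and APC/C genes, -0.41 and -0.09 for spindle and cytokinesis genes and -0.50 and -0.21 for the pair Mki67 and Top2a. No role had a member called by edgeR in either setting.

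**Figure D4:**
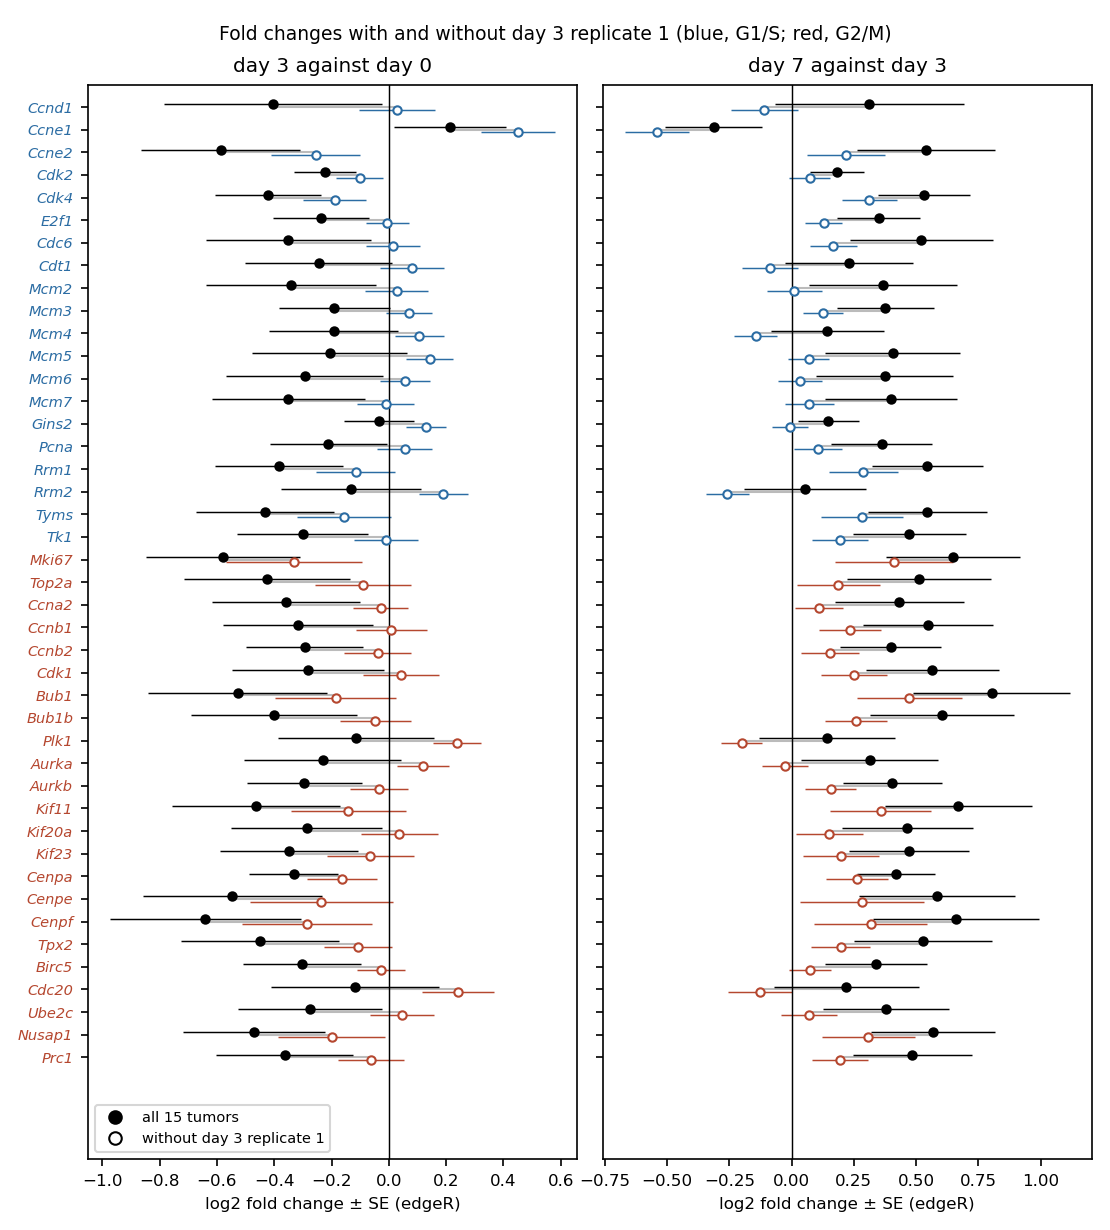
Log2 fold change ± SE (horizontal axes, edgeR) of each member on day 3 against day 0 (left) and on day 7 against day 3 (right), with all 15 tumors (black points) and without day 3 replicate 1 (open points). Leaving out the tumor brings most members toward 0 in both comparisons, while Ccne1 lies further from 0 without it (0.45 and -0.54) than with it (0.21 and -0.31).

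Day 7 was compared with day 3 to ask how the genes stood at the end of the course. This comparison shares the day 3 tumors with the last one, so its values are given beside it and are not a second observation of day 3. EdgeR called 0 members and 0% of all genes. By sign 19 of 20 G1/S and 23 of 23 G2/M members were higher on day 7, against 51.6% of all genes, with median log2 fold changes of 0.37 and 0.48, and of 0.02 for all genes. Without day 3 replicate 1 the medians were 0.07 and 0.20, with 14 of 20 and 20 of 23 higher, against 51.7% of genes. At an unadjusted p under 0.05, 8 members were higher, 3 G1/S (Cdk4, Rrm1, Tyms) and 5 G2/M (Mki67, Bub1, Kif11, Cenpa, Nusap1), a share of 8 in 43 beside 12.9% of all genes. The day 7 tumors lay wholly above those of day 3 for 19 of 43 members, 9 G1/S and 10 G2/M, against 14.6% of all genes.

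DESeq2 called 3 members as higher on day 7 than on day 3, where it called 6.11% of all genes as higher. Cdk4 was at 0.53 (DESeq2 adjusted p = 0.0281, edgeR 0.0893), Bub1 at 0.80 (DESeq2 0.0486, edgeR adjusted p = 0.105) and Cenpa at 0.42 (DESeq2 0.0421, edgeR adjusted p = 0.0970). Over the settings tried their adjusted p-values reached 0.315, 0.316 and 0.321. DESeq2 called no member when day 3 replicate 1 was left out, and its adjusted p-values for Cdk4, Bub1 and Cenpa were 0.115, 0.187 and 0.221. EdgeR called 2 members, Mki67 at 0.95 and Cenpa at 0.57 (adjusted p = 0.0493 for each, among 2104 genes), where day 3 replicate 3 was left out, so that the call depended on which day 3 tumor was kept. The largest differences with all tumors were those of Tyms (0.55), Rrm1 (0.54) and Ccne2 (0.54) among G1/S members and of Bub1 (0.80), Kif11 (0.67) and Cenpf (0.66) among G2/M members, with Rrm2 (0.05) and Plk1 (0.14) nearest to 0. Leaving out day 3 replicate 1 turned these 8 values into 0.28, 0.29, 0.22, 0.47, 0.36, 0.32, -0.26 and -0.20 in the same order.

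Ccne1 was again on the other side of the class, at -0.31 ± 0.20 with all tumors (adjusted p = 0.245 by edgeR) and -0.54 ± 0.13 without day 3 replicate 1 (adjusted p = 0.315 by edgeR). Limma voom called it as lower on day 7, at -0.52 (adjusted p = 0.0485, and 0.0485 to 0.809 over 22 settings), where it called 2.8% of all genes as lower. Without that tumor, Ccne1, Rrm2 and Plk1 were lower and Cdk4 (0.31) and Bub1 (0.47) higher at an unadjusted edgeR p under 0.05, beside 8.48% of genes lower and 7.27% higher. Their adjusted p-values were between 0.315 and 0.316.

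On days 1, 5 and 7 the class medians lay close to those of day 0. EdgeR called 0 members on each of these days (0% of all genes) and gave 0 of them an unadjusted p under 0.05, where 2.18%, 1.41% and 1.05% of all genes were higher and 0.981%, 3.39% and 1.02% lower at that level on days 1, 5 and 7. On day 1 the medians of the log2 fold changes were 0.0014 (G1/S) and -0.03 (G2/M), with 10 of 20 and 8 of 23 members higher, against 49.9% of genes. Ccne2 (-0.30), Cdt1 (0.13) and Ccne1 (0.13) differed most among G1/S members and Mcm4 (-0.0054) least. Mki67 (-0.21), Cenpe (-0.17) and Prc1 (-0.12) differed most among G2/M members and Plk1 (0.0019) least. DESeq2 called 0 members on day 1 (0.24% of all genes higher, 0.0195% lower), as did limma voom (0%). Ccne2 lay below day 0 in 2 of the 3 day 1 tumors and within the day 0 range in the other, with a standard error of 0.28, and the standard errors of the other 7 genes were larger than their differences. Rrm2 was the member whose day 1 tumors lay wholly below those of day 0, 1 in 43 beside 6.61% of all genes, and no member lay wholly above, beside 5.76%.

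On day 5 the medians were 0.02 for G1/S and -0.0002 for G2/M, with 14 of 20 and 11 of 23 members higher, against 50.3% of all genes. Ccne1 (0.25), Mcm3 (0.13) and Rrm2 (0.13) were furthest from 0 among G1/S members, with Rrm1 (0.0017) nearest, and Mki67 (-0.37), Cenpf (-0.34) and Cenpe (-0.29) among G2/M members, with Kif11 (-0.0002) nearest. All 3 day 5 tumors had more Ccne1, Rrm2 and Gins2 than any day 0 tumor, 3 in 43 beside 6.89% of all genes, and less Mki67, 1 in 43 beside 10.8%. Limma voom called Ccne1 as higher (adjusted p = 0.0280), beside 7.11% of all genes, and Mki67 as lower (adjusted p = 0.0388), beside 8.75% of all genes. EdgeR called neither (adjusted p = 0.863 for both), nor did DESeq2 (adjusted p = 0.827 and 0.826), which called 0.0202% of all genes as higher and 0.054% as lower.

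On day 7 all 23 G2/M members and 13 of 20 G1/S members were higher than on day 0, against 44.4% of all genes, with medians of 0.10 for each class and of -0.02 for all genes. The value of 13 of the 43 members crossed 0 when 1 tumor at a time was left out. In the G2/M class these were Mki67, Plk1, Cenpe, Cenpf, Birc5, Ube2c and Nusap1. Mcm5 (0.20), Mcm3 (0.19) and Tk1 (0.17) had the largest values among G1/S members, and Cdt1 (-0.02) the smallest. Cdk1 (0.28), Bub1 (0.28) and Ccnb1 (0.23) had the largest among G2/M members, and Cenpf (0.02) the smallest. Standard errors of these genes were between 0.19 and 0.33. The 3 day 7 tumors lay wholly above the day 0 tumors for 7 members, Cdc6, Mcm3, Mcm5, Gins2, Ccnb1, Cdk1 and Bub1b, a share of 7 in 43 beside 5.02% of all genes, and below them for none, beside 6.26%. DESeq2 called 0 members (0.0195% of all genes higher, 0.013% lower), as did limma voom (0%). Since the spread is shared, leaving out day 3 replicate 1 lowered the standard errors. Mcm5, Mcm3 and Cdk1 were then at an unadjusted p under 0.05, 3 in 43 beside 4.81% of all genes in either direction. Their edgeR adjusted p-values were 0.926 or more.

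Between neighboring harvest days edgeR also called 0 members and 0% of genes. Cdk2 had an unadjusted edgeR p under 0.05 on day 3 against day 1 (-0.25, adjusted p = 0.267) and on day 5 against day 3 (0.23, adjusted p = 0.503), where 5.54% of genes were lower and 2.69% higher at that level. These became -0.14 and 0.13 when that tumor was left out. Without that tumor Rrm2 (0.28), Plk1 (0.23) and Ccne1 (0.32) were higher on day 3 than on day 1 at an unadjusted p under 0.05, beside 1.3% of all genes, with an edgeR adjusted p of 0.91 for each. A joint test of the 4 treated days called 0 members by edgeR, with 0 at an unadjusted p under 0.05 where 16.2% of genes were, and 0 members by DESeq2, which called 1176 genes. Limma voom called Ccne1 (adjusted p = 0.0150) among 3864 genes. Cdk4 had the smallest edgeR p of the 43 in the joint test (adjusted p = 0.386).

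The typical member varied less between tumors than the typical gene. Over the 14 tumors other than day 3 replicate 1, the coefficient of variation of CPM had a median of 7.82% for G1/S and of 10.4% for G2/M, against 14.3% for all genes tested. The most variable were Mki67 at 20.2%, Cenpe at 19.0%, Cenpf at 18.8% and Bub1 at 18.7%, all G2/M, and the least were Gins2 at 4.56% and E2f1 at 5.38%. Among these 14 tumors day 1 replicate 3 was the lowest for 18 members, 14 of them G2/M, against 12.6% of all genes, and day 0 replicate 1 for 10 members against 8.04%. Day 7 replicate 1 was the highest for 22 members, 15 of them G2/M, against 15.5% of all genes, and the lowest for 6 members, 5 of them G1/S, against 11.6%.

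Transcript length went along with the variation of the G2/M members in part of the tumors. Lengths of the longest protein-coding transcript in GENCODE M21 ran from 1466 bases for Cenpa to 11130 bases for Cenpf, with 10061 for Mki67 and 7910 for Cenpe. Across the 23 G2/M members, Spearman's rho between this length and the deviation of log2 CPM from the day 0 mean was -0.81 in day 5 replicate 1, -0.63 in day 1 replicate 3, -0.65 in day 7 replicate 2, -0.62 in day 5 replicate 2, -0.60 in day 3 replicate 2 and -0.58 in day 3 replicate 1. It was positive, 0.62 and 0.58, in day 7 replicate 1 and day 1 replicate 1. In the remaining tumors it was weaker, between -0.47 in day 3 replicate 3 and 0.25 in day 0 replicate 1. Deviations of Mki67, Cenpe and Cenpf were -0.64, -0.60 and -0.57 log2 units in day 5 replicate 1, and 0.31, 0.24 and 0.24 in day 7 replicate 1. Across all 14174 genes with a length, rho was between -0.26 and 0.18 over the 15 tumors, and across the 20 G1/S members it was between -0.41, in day 3 replicate 1, and 0.24. These are correlations across genes that share a library, and genes are not independent replicates. Measures of RNA integrity were not used here, and the part of transcript length in the levels of these genes was not tested.

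**Figure D5:**
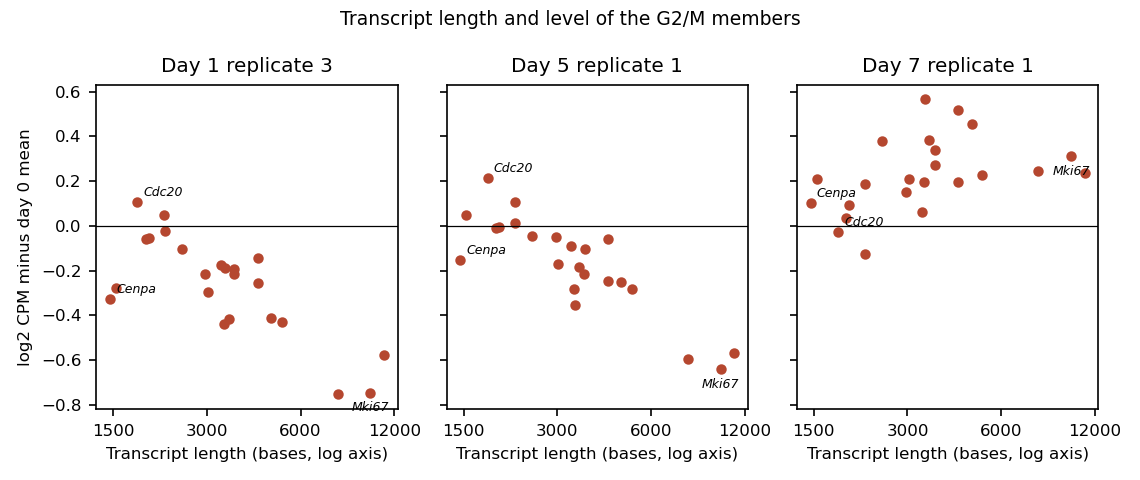
Deviation of log2 CPM from the day 0 mean (vertical axis) against the length of the longest protein-coding transcript (bases, log axis) for the 23 G2/M members in 3 tumors. The longest transcripts have the lowest values in day 1 replicate 3 (rho = -0.63) and day 5 replicate 1 (rho = -0.81) and lie above 0 in day 7 replicate 1 (rho = 0.62).

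Other genes of the cell cycle, which were not members, were read beside them. All 39 other G1/S and replication genes and all 47 other G2/M genes were tested. On day 3 against day 0 the G1/S genes had a median log2 fold change of -0.31, with 38 of 39 lower. At an unadjusted edgeR p under 0.05 were 2 of these, beside 11.7% of all genes lower at that level, and the 1 higher gene, beside 18.3% higher. The G2/M genes had a median of -0.39, with 47 of 47 lower and 3 at that level. Without day 3 replicate 1 the medians were -0.02 and -0.10. Rfc2, a subunit of the clamp loader, was the G1/S gene that was higher (0.23, edgeR adjusted p = 0.129). The chromatin regulator Atad2 (-0.65) was among the lower genes at that level. In the G2/M list the smallest were those of the kinesin Kif18a (-0.69), the ubiquitin ligase G2e3 (-0.45) and the kinetochore scaffold Knl1 (-0.73). Values in parentheses are log2 fold changes with all tumors, and none of these genes was called by edgeR.

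On day 7 against day 3 these lists had medians of 0.37 and 0.46 with all tumors, with 38 of 39 and 47 of 47 higher, and of 0.08 and 0.20 without day 3 replicate 1. At an unadjusted edgeR p under 0.05, 5 of 39 and 11 of 47 were higher, beside 12.9% of all genes, and 0 lower, beside 22.6%. Without day 3 replicate 1 these counts were 0 and 4, beside 7.27%. DESeq2 called 0 of the G1/S genes and 3 of the 47 G2/M genes, where it called 6.11% of all genes as higher. The 3 were G2e3 (0.59, DESeq2 adjusted p = 0.0286), the Cdk1 partner Cks1b (0.71, 0.0341) and the lamin B receptor Lbr (0.39, 0.0490). When that tumor was left out their DESeq2 adjusted p-values were 0.170, 0.0925 and 0.234. The helicase Blm (0.61), Atad2 (0.66) and the polymerase subunit Pola1 (0.65) had the smallest p-values of the G1/S list. EdgeR called none of these genes.

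With all tumors, most transcription factors of the cycle had a lower level on day 3 and a few had a higher one. Of 20 such genes 19 were tested, and on day 3 their median log2 fold change was -0.27 with 14 lower, and -0.02 with 11 lower without day 3 replicate 1. E2f6, a repressor of the E2F family, stood at 8.40, 7.71 and 7.33 CPM on day 0, 8.62, 8.14 and 11.1 on day 1, 21.6, 14.3 and 12.5 on day 3, 12.2, 11.8 and 10.9 on day 5 and 9.07, 11.6 and 8.11 on day 7. All 3 day 3 tumors were above all 3 of day 0, as for 19.4% of all genes. The log2 fold change of E2f6 was 1.05 ± 0.21 (adjusted p = 0.115 by edgeR and 0.00292 by DESeq2). It was 0.79 without day 3 replicate 1 (DESeq2 adjusted p = 0.0226). DESeq2 called 9.43% of all genes as higher with all tumors and 0.28% without day 3 replicate 1. Rbl2, which encodes the retinoblastoma-like pocket protein p130, was at 0.79 (edgeR adjusted p = 0.115, DESeq2 0.0311) and at 0.40 without that tumor (DESeq2 adjusted p = 0.327). Lin9, a subunit of the DREAM and MuvB complexes, was at -0.48 (edgeR adjusted p = 0.149) and at -0.28 without that tumor. On day 7 against day 3, E2f6 was at -0.75, Rbl2 at -0.80 and Rb1 at -0.39. With all tumors DESeq2 called E2f6 and Rbl2 as lower, where it called 15.4% of all genes as lower. When day 3 replicate 1 was left out DESeq2 gave Rbl2 an adjusted p of 0.200 and gave none for E2f6. EdgeR called none.

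Other G1 cyclins and cyclin-dependent kinases, of which 5 of 6 were tested, had a median of -0.33 on day 3, and -0.04 without day 3 replicate 1. The D-type cyclin Ccnd3 was at 0.50 (edgeR adjusted p = 0.115, DESeq2 adjusted p = 0.0233) and at 0.43 without it (DESeq2 adjusted p = 0.229), while Cdk7 (-0.36) and cyclin H (Ccnh, -0.34), which form the kinase that activates other CDKs, had edgeR adjusted p-values of 0.139 and 0.140. With all tumors DESeq2 called 9.43% of all genes as higher on day 3 against day 0. On day 7 against day 3 the values were -0.36 for Ccnd3 and 0.36 for Cdk7.

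Inhibitors of cyclin-dependent kinases and p53 targets, 16 genes all tested, showed no common direction on day 3, with 8 higher, 8 lower and a median of -0.01. Cdkn2a, which encodes p16 and p19Arf, stood at 14.8, 14.7 and 17.0 CPM on day 0, 16.2, 20.0 and 14.5 on day 1, 6.60, 10 and 11.5 on day 3, 11.1, 14.1 and 16.5 on day 5 and 16.5, 15.02 and 17.1 on day 7. Gadd45a, a p53 target induced by stress, stood at 35.1, 33.3 and 32.5 CPM on day 0, 23.1, 34.8 and 26.4 on day 1, 13.2, 16.5 and 18.2 on day 3, 13.0, 16.9 and 33.6 on day 5 and 33.9, 22.2 and 41.9 on day 7. For both genes the 3 day 3 tumors lay wholly below the 3 day 0 tumors, including replicates 2 and 3. This held for 19% of all genes, and for 22.9% without day 3 replicate 1. The log2 fold change was -0.72 for Cdkn2a (edgeR adjusted p = 0.115, DESeq2 adjusted p = 0.0187) and -1.08 for Gadd45a (edgeR adjusted p = 0.115, DESeq2 adjusted p = 0.0228), and -0.52 and -0.95 without day 3 replicate 1 (DESeq2 adjusted p = 0.196 for each). Cdkn1c, which encodes p57, was at 3.44 with all tumors (edgeR adjusted p = 0.115, DESeq2 adjusted p = 0.0157) and at 0.84 without day 3 replicate 1 (DESeq2 adjusted p = 0.614). In that tumor it reached 13.05 CPM against 0.270 to 2.27 CPM in the other 14 tumors. With all tumors DESeq2 called 4.09% of all genes as lower and 9.43% as higher on day 3 against day 0. On day 7 against day 3, Cdkn2a (0.79), Gadd45a (1.03) and Cdkn2b (0.94) were called as higher by DESeq2 (adjusted p = 0.00989, 0.0190 and 0.0276). DESeq2 called 6.11% of all genes as higher in this comparison. EdgeR called none of the 3, with adjusted p-values of 0.0832, 0.0832 and 0.0868. Without day 3 replicate 1 their log2 fold changes were 0.60, 0.92 and 0.63, and DESeq2 gave no adjusted p for them.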

How the data were processed

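Poly(A) RNA of 15 whole tumors was sequenced in single-end reads, and 1 table holds 1 column per tumor. The authors ran FastQC 0.11.3 for read quality and kallisto 0.43.0 on mm10 for transcripts, and tximport to sum these to genes. The transcript set is not given in the sources used here. The deposited values are estimated counts per gene, already whole numbers and not scaled between tumors. Estimated counts divide reads between similar transcripts, but the related entries Pcna-ps2 and Ccnb2-ps never had more than 14 and 34 counts, where Pcna and Ccnb2 had at least 4140 and 995.

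Of 32544 entries, 1 whose name had become a date was left out (at most 0.0268% of a tumor's counts), 9156 had no count, and 31400 names matched current symbols. Entries above 0.366 CPM in at least 3 tumors were tested (15494, or 15378 without day 3 replicate 1). EdgeR 4.0.16 in R 4.3.3 was fitted to all 15 tumors with TMM scaling and a quasi-likelihood test, Benjamini-Hochberg adjustment was over all genes tested, with calls made under an adjusted p of 0.05. DESeq2 1.42.0 and limma 3.58.1 (voom with quality weights) were alternatives, as were other scaling, no filter, only the compared days, a replicate block and each tumor left out. Code was tested on simulated data. CPM values are counts scaled by the total of the tested entries multiplied by the TMM factor of the tumor, and log2 levels use a prior count of 2. Figures and promoter searches used Python 3.11.15, pandas 2.3.3, SciPy 1.17.1 and matplotlib 3.10.9.

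The 43 members, their classes and all other lists were chosen with earlier results of these data known. Values in every tumor are given for 15 members fixed by name and for the 4 members of each class with the smallest joint p, 21 in all. In the comparisons of days 1, 3, 5 and 7 with day 0 and of day 7 with day 3, the 3 members of each class with the largest log2 fold change and the 1 nearest to 0 are named, and of each other list the 3 genes with the smallest p on day 3 against day 0 and day 7 against day 3. Of these, 1 gene is not reported here by name. Genes named outside this rule were chosen after their values were seen. Tumors of 1 day are labelled as separate samples, but neither their mice nor any batch are labelled, so p-values measure the spread between these tumors. Counts of replicates differed by more than sampling noise in every pair (chi-square per degree of freedom of 9.32 to 269). Intervals from counts of 0 cover counting error only.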

Additional observations from a re-analysis of the deposited data

Results flagged for a closer look

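Rrm2, the small subunit of ribonucleotide reductase, lay on opposite sides of day 0 on days 1 and 5, and passed no edgeR test on either day. Its levels were 156, 150.3 and 153 CPM in the day 1 tumors, all below the 171, 156 and 165 CPM of day 0, and 185, 181 and 172 CPM in the day 5 tumors, all above them. The log2 fold change of day 5 exceeded that of day 1 by 0.23, and this difference was not tested. Both margins were small, 155.5 CPM in the highest day 1 tumor beside 155.6 CPM in the lowest day 0 tumor, and 171.7 CPM in the lowest day 5 tumor beside 171.4 CPM in the highest day 0 tumor. The day 1 margin depends on the scaling, since the TMM factors of its tumors were 1.013 (day 1 replicate 1) and 1.007 (day 0 replicate 2).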

How the results depend on the processing

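Leaving out 1 tumor at a time moved the median log2 fold change on day 1 against day 0 between -0.0424 and 0.0522 for G1/S and between -0.13 and 0.06 for G2/M, on day 3 between -0.47 and 0.028 and between -0.59 and -0.0468, on day 5 between -0.0145 and 0.0671 and between -0.0916 and 0.0814, on day 7 between 0.0591 and 0.12 and between 0.0311 and 0.15, and on day 7 against day 3 between 0.0721 and 0.60 and between 0.20 and 0.73. The number of members at an unadjusted p under 0.05 ran from 0 to 19 on day 3 against day 0, 0 to 1 on day 5, 0 to 3 on day 7, 0 to 13 on day 3 against day 1, 0 to 17 on day 5 against day 3, 0 to 2 on day 7 against day 5 and 2 to 27 on day 7 against day 3. The counts of 19, 13, 17 and 27 came without day 3 replicate 3, where 40.2%, 30.6%, 17.0% and 44.0% of all genes were at that level. On day 3 against day 0 the value of 19 of the 43 members crossed 0 in these fits, and on day 7 against day 3 that of 8. On days 1, 5 and 7 against day 0 it crossed 0 for 30, 26 and 13 members. Among the 21 members described in every tumor, the ranges that crossed 0 on day 3 against day 0 were -0.57 to 0.0084 (Ccnb1), -0.50 to 0.0427 (Cdk1), -0.33 to 0.24 (Plk1), -0.44 to 0.24 (Cdc20), -0.69 to 0.0284 (Ccnd1), -0.0329 to 0.45 (Ccne1), -0.62 to 0.0276 (Mcm2), -0.46 to 0.14 (Mcm5), -0.39 to 0.0554 (Pcna) and -0.36 to 0.19 (Rrm2). On day 7 against day 3 they were -0.20 to 0.36 (Plk1), -0.13 to 0.54 (Cdc20), -0.11 to 0.61 (Ccnd1) and -0.26 to 0.29 (Rrm2).

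DESeq2 without day 3 replicate 1, an alternative chosen after seeing the data, gave a G1/S median of 0.0254 on day 3. The G2/M median on day 5, -0.0002, became 0.0106 with DESeq2 size factors in edgeR and with DESeq2, 0.0117 with only the compared days and 0.0146 with DESeq2 without day 3 replicate 1. Counts of members at an unadjusted p under 0.05 follow, each with the share of all genes at that level in parentheses. With DESeq2 they were 5 (34.2%) on day 3 against day 0, 2 (22.2%) on day 3 against day 1, 2 (10.9%) on day 5 against day 3 and 16 (39.7%) on day 7 against day 3, and with limma voom 1 (11.6%), 4 (28.4%) and 5 (33.5%) on days 1, 3 and 5 against day 0, 4 (25.6%) on day 3 against day 1, 0 (8.11%) on day 5 against day 3 and 8 (28.7%) on day 7 against day 5. DESeq2 size factors in edgeR gave 3 (30.6%) on day 3 and 13 (36.9%) on day 7 against day 3, and no filter 3 (21.3%) on day 3 and 0 (6.28%) on day 5 against day 3. Only the compared days gave 0 (21.1%), 3 (13.2%) and 5 (5.16%) on days 3, 5 and 7 against day 0, 0 (6.23%) on day 3 against day 1, 0 (2.51%) on day 5 against day 3, 2 (3.85%) on day 7 against day 5 and 1 (19.4%) on day 7 against day 3. DESeq2 without day 3 replicate 1 gave 1 (5.61%), 3 (14.3%), 1 (11%) and 4 (4.82%) on days 1, 3, 5 and 7 against day 0, 3 (4.21%) on day 3 against day 1, 0 (2.66%) on day 5 against day 3, 3 (9.56%) on day 7 against day 5 and 5 (17.4%) on day 7 against day 3. The joint test called 1176 genes by DESeq2, 3864 by limma voom and 181 by DESeq2 without day 3 replicate 1, against 0 by edgeR. The cause of these differences was not tested.

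On day 3 against day 0, limma voom turned Plk1 (0.18), Cdc20 (0.15), Ccnd1 (0.0113), Mcm5 (0.0622), Pcna (0.0123) and Rrm2 (0.15) to a higher level, and DESeq2 without day 3 replicate 1 turned Ccnb1 (0.0068), Cdk1 (0.0407), Plk1 (0.24), Cdc20 (0.24), Ccnd1 (0.0258), Mcm2 (0.025), Mcm5 (0.14), Pcna (0.0531) and Rrm2 (0.19). On day 7 against day 3 these tools gave -0.18 and -0.20 for Plk1, -0.13 and -0.13 for Cdc20, -0.065 and -0.11 for Ccnd1 and -0.25 and -0.26 for Rrm2.

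Tumors share replicate numbers between days, but of 30 same-numbered pairs only 9 correlated above 0.1 (-0.619 to 0.511), so the numbers were not used to pair the tumors. With 3 tumors a day these correlations cannot decide whether tumors of 1 number share a batch. With a replicate block the count was 0 (12.7% of all genes) on day 3 against day 1, 0 (5.52%) on day 5 against day 3 and 11 (30.5%) on day 7 against day 3, and no gene was called. There were 3 tumors a day, 1 of which stood apart on day 3, and every member had at least 251 counts in every tumor.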
